A study of Danio rerio with 20 samples.

Results

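A set of 64 loci had higher values in all 8 libraries taken at 7 and 14 days post cryoinjury (dpci) than in any of the other 12 libraries of zebrafish ventricular apex, which came from non-injured hearts and from 1.5 and 3 dpci. They were chosen by their measured values, from 66128 loci in the table. The rule asked for a mean of at least 50 over the 20 libraries, which 20007 loci reached, and a mean of at least 5 in the non-injured group, which left 19973. It then asked that the lowest late library, meaning one at 7 or 14 dpci, lie above the highest of the other 12, which left 74. Finally, the means of log2(value + 1) at both 1.5 and 3 dpci had to be less than 0.5 above the non-injured mean, which left 64, or 0.320% of the loci with a mean of at least 50. None of the 64 was among the 100 loci with the highest non-injured mean, which the rule sets aside, and its limit of 150 loci was not reached.

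The 5 groups were wild-type hearts without cryoinjury and wild-type hearts at 1.5, 3, 7 and 14 dpci, with 4 libraries per group. The labels give no age, transgene or drug, and by the labels the groups differ by the injury and the time after it. The paper's methods give fish of both sexes over a range of ages in months. How sex and age were divided between the pools is not stated there. Each library came from 3 to 4 apexes pooled in one tube, so no value belongs to a single fish and p-values rest on the spread between pools. Total RNA was converted to stranded libraries and sequenced.

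Cryoinjury freezes part of the ventricle and kills the cells there. The zebrafish heart clears the dead tissue in an inflammatory phase, deposits a fibrin-rich matrix and then a collagen-containing scar, covers the wound with epicardium, and replaces cardiomyocytes by division of the remaining ones while the scar is resolved. Loci with RNA that is more abundant in the apex only at the later sampling times can thus belong to any of several cell populations that enter, leave or grow in the wound. In bulk tissue, fewer cells of a type and less RNA per cell cannot be told apart, and the same holds for more cells and more RNA per cell.

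The loci are given here by the numbers of the transcript assembly (XLOC numbers). Gene names and positions fill only part of the table and stand in another order than the locus numbers, so they were not used, and no function, position or sequence is given for any locus. For the same reason the tissue label was not checked against markers of cardiomyocytes, endothelium, fibroblasts or immune cells. Each value is the number of reads on a locus divided by 1 size factor for its library. Values were not divided by the length of the locus, so a value can be compared between libraries but not between loci.

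Reads on all loci amounted to between 19349171 and 32939803 per library, in the 19 libraries whose values were turned back into whole reads. Over all loci the non-injured group was not uniform. On the first principal component, which held 31.5% of the variance, non-injured replicates 1 and 2 scored 110.4 and 44.8, on the side of the 8 late libraries, which scored from 118.0 to 166.1. Non-injured replicates 3 and 4 scored -75.6 and -92.1, on the side of the early libraries, which scored from -162.5 to -109.1. Whether the libraries were handled in batches is not given in the sources used here. The differences from the non-injured group are therefore also given against each pair of its libraries.

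Because the rule used the late and non-injured values, the size of the late difference is a description and carries no test. In the table as a whole, 74 of the 20007 loci with a mean of at least 50 had every late library above every other library, or 0.37%, and these are the loci the rule drew on. The difference between the late mean and the non-injured mean of log2(value + 1) had a median of 1.30 over the 64 loci, and ranged from 0.33 to 5.71. Over all loci with a mean of at least 50 the median was -0.01. The difference was at least 2 in 14 loci, from 1 to under 2 in 32 and under 1 in 18. As a ratio of mean values, late over non-injured, the median was 2.39, with a range of 1.265 to 24.6.

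**Figure D1:**
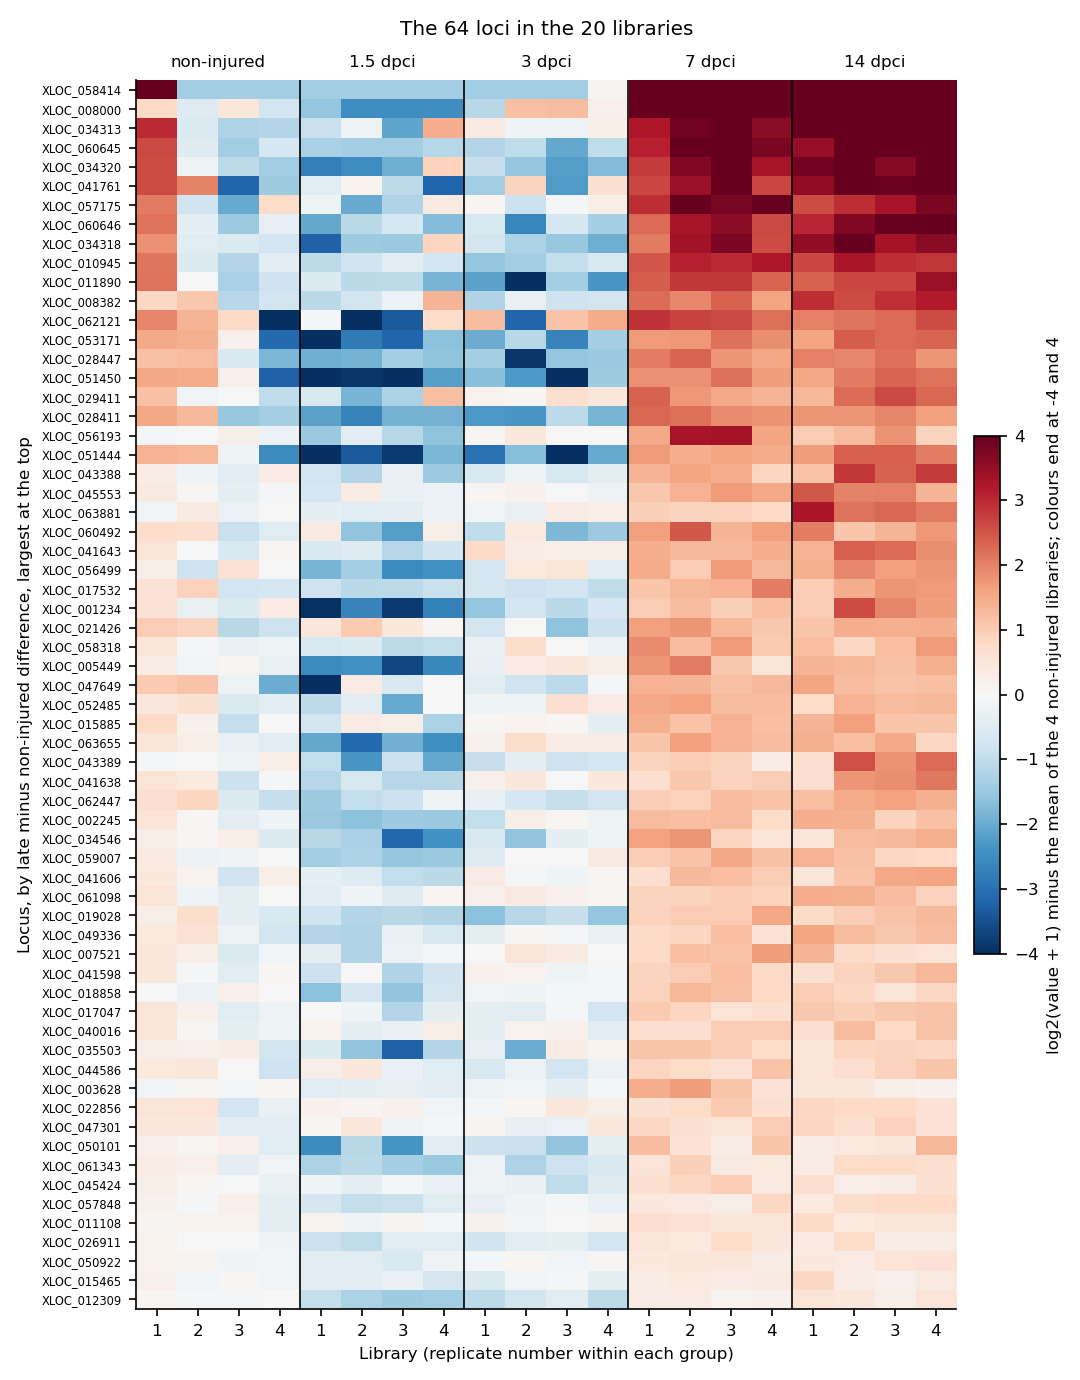
Values of the 64 loci (one per line, ordered by the late minus non-injured difference) in the 20 libraries (columns, grouped as non-injured, 1.5, 3, 7 and 14 dpci), as log2(value + 1) minus the mean of the 4 non-injured libraries of the same locus. The late columns are red in all loci, most 1.5 dpci columns are blue, and among the non-injured libraries replicate 1 is the reddest, with the highest non-injured value in 43 of the 64 loci.

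Summed over the 64 loci, the values came to between 29249 and 49650 in non-injured libraries, 16907 and 18660 at 1.5 dpci, 23227 and 30585 at 3 dpci, 72719 and 83669 at 7 dpci, and finally 75976 and 151106 at 14 dpci. The lowest sums were those at 1.5 dpci, and the sums at 3 dpci lay above them and overlapped the non-injured ones. A sum follows the loci with the largest values and does not describe most of the 64. In 14 dpci replicate 2, XLOC_001234 and XLOC_043388 alone had 65511 and 42168. The spread within groups was uneven. The SD of the log2 values over the 4 libraries had a median of 0.57 in the non-injured group for the 64 loci, against 0.28 for all loci with a mean of at least 50. It was 0.48 at 1.5 dpci and 0.34 at 3 dpci for the 64 loci, against 0.23 and 0.25 for all loci with that mean. At 7 and 14 dpci the medians were 0.26 and 0.28 for the 64 loci, against 0.27 at both times for all loci with that mean. The rule used the values of every group, so these medians are a description. They cannot be set against all loci as a result about the 64.

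The 10 loci with the largest late minus non-injured difference reached differences of 2.95 to 5.71. XLOC_058414 stood first, with values of 45.5, 0, 0 and 0 in the non-injured libraries, 0 in all 4 libraries at 1.5 dpci, and then 0, 0, 0 and 1.83 at 3 dpci. At 7 dpci it had 242, 161, 104 and 160.4, and at 14 dpci 56.03, 182, 149 and 118. It was thus listed at 0 in 10 of the 12 other libraries, and its non-injured mean of 11.4 came from replicate 1 alone. Its lowest late library, 14 dpci replicate 1, was 1.23 times that single non-injured value. The difference of 5.71 depended on the 1 added before the logarithm, and was 8.20 with 0.1 and 3.99 with 5.

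XLOC_008000 was the locus with the clearest gap. It had 8.84, 2.96, 6.65 and 2.39 in the non-injured libraries, 0.913, 0, 0 and 0 at 1.5 dpci, and then 1.63, 12.03, 12.4 and 5.502 at 3 dpci. The late values were 105, 152, 131 and 131 (7 dpci) and 122, 111, 148 and 125 (14 dpci). The lowest of these was 8.50 times the highest of the other 12 values, the widest such gap among the 64 loci, and the ratio of means, late over non-injured, was 24.6. Its difference hardly depended on the non-injured libraries used, at 4.36 against replicates 1 and 2 and 4.65 against replicates 3 and 4. With 5 in place of 1 added before the logarithm the difference of 4.51 became 3.74.

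Loci with nearby numbers made up 5 of the other 8. XLOC_034313, XLOC_034318 and XLOC_034320 followed each other closely across libraries. XLOC_034320 had 152, 20.7, 11.1 and 8.38 in the non-injured libraries, 2.74, 3.402, 5.46 and 46.1 at 1.5 dpci and 12.2, 7.401, 4.42 and 6.42 at 3 dpci. Its values at 7 dpci were 171, 321, 419.5 and 242, and at 14 dpci 358, 574, 306 and 397. In each of these 3 loci non-injured replicate 1 was far above replicates 2 to 4, 1.5 dpci replicate 4 was the highest of its group, and 14 dpci replicate 2 was the highest of all libraries. XLOC_034313 averaged 185.0 ± 72.4 (SD, n = 8) in late libraries and 23.1 ± 37.7 (SD, n = 4) in non-injured ones, and XLOC_034318 averaged 195.0 ± 81.4 in late libraries and 23.9 ± 26.2 in non-injured ones.

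XLOC_060645 and XLOC_060646 stood next to each other in number and also moved together. XLOC_060645 had 69.5, 6.91, 3.32 and 5.98 in the non-injured libraries, and stayed between 1.77 and 4.63 in all 8 libraries at 1.5 and 3 dpci. It had 98.2, 201, 227 and 154 at 7 dpci and 128, 214, 277 and 353 at 14 dpci. XLOC_060646 had 51.8, 7.9, 3.32 and 8.38 in the non-injured libraries, 55.1, 115, 138 and 73 at 7 dpci and 96.6, 151, 202 and 230.2 at 14 dpci. Both loci were lowest among late libraries in 7 dpci replicate 1 and highest in 14 dpci replicate 4, and in both the lowest late value was under 1.5 times non-injured replicate 1.

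In XLOC_041761 non-injured replicates 1 and 2 were both far above replicates 3 and 4. Its non-injured values were 54.3, 34.6, 0 and 2.39, of which replicate 1 was close to the lowest late values, and its late values were 56.1, 97.5, 157 and 56.7 (7 dpci) and 104, 339, 140.3 and 153 (14 dpci). Its difference was 1.42 against non-injured replicates 1 and 2, and 6.01 against replicates 3 and 4, one of which is at 0. XLOC_057175 had 35.4, 3.95, 1.11 and 13.2 in the non-injured libraries, 65.1, 184, 119 and 364 at 7 dpci and 51.3, 64.8, 83.02 and 117 at 14 dpci. Non-injured replicate 1 was the highest of the other 12 libraries in this locus and in XLOC_010945. XLOC_010945 had 75.8, 10.9, 6.65 and 11.97 in the non-injured libraries, 97.2, 147, 136 and 161 at 7 dpci and 109.7, 164, 134 and 126 at 14 dpci. Its late range, from 97.2 to 164.1, was narrower than that of XLOC_057175.

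**Figure D2:**
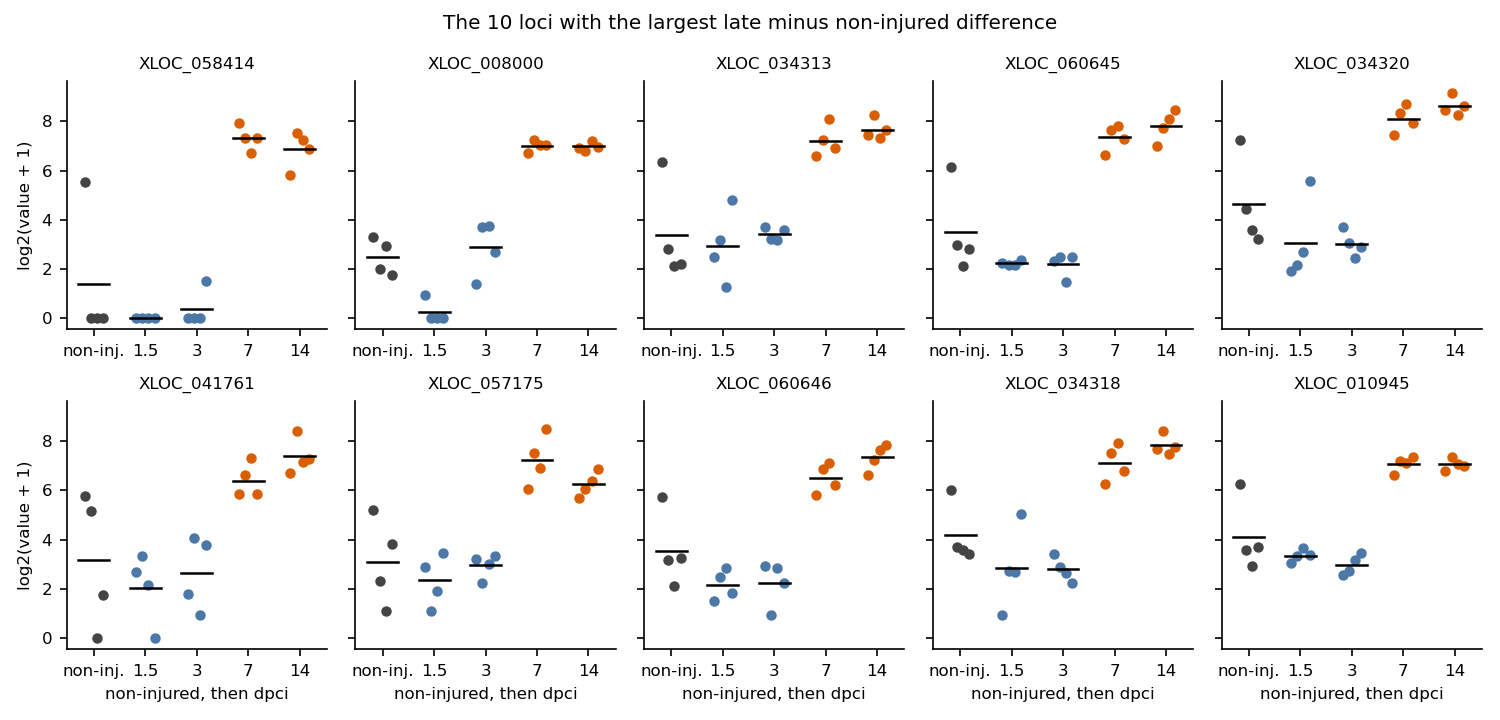
log2(value + 1) of the 10 loci with the largest difference, in each library (points) and as group means (bars), for non-injured hearts and 1.5, 3, 7 and 14 dpci (4 libraries each). Every late point lies above every other point of its panel, as the rule asks, and in all of these loci except XLOC_008000 the non-injured replicate 1 point lies well above the non-injured mean.

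The non-injured libraries divided in these loci in one direction. Non-injured replicates 1 and 2 were both above replicates 3 and 4 in 37 of the 64 loci (57.8%), against 19.4% of the loci with a mean of at least 50, and the opposite order was found in 1 of the 64, against 21.5%. This order is independent neither of the rule, which uses all 4 non-injured values, nor of the other loci. Of the 12 libraries that were not late, non-injured replicate 1 was the highest in 35 of the 64 loci and replicate 2 in 9, while replicates 3 and 4 were the highest in 4 and 3. A library at 3 dpci was the highest in 10 loci and one at 1.5 dpci in 3.

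Set against non-injured replicates 1 and 2 only, the late difference had a median of 0.80 over the 64 loci, and 26 of them had a difference of at least 1. Against replicates 3 and 4 only, the median was 1.70, and 53 loci had a difference of at least 1. Without replicate 1 alone the median was 1.49. The difference was above 0 in all 64 loci against either pair, as the rule requires. The part that the division of the non-injured libraries has in the size of the differences was not tested.

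**Figure D3:**
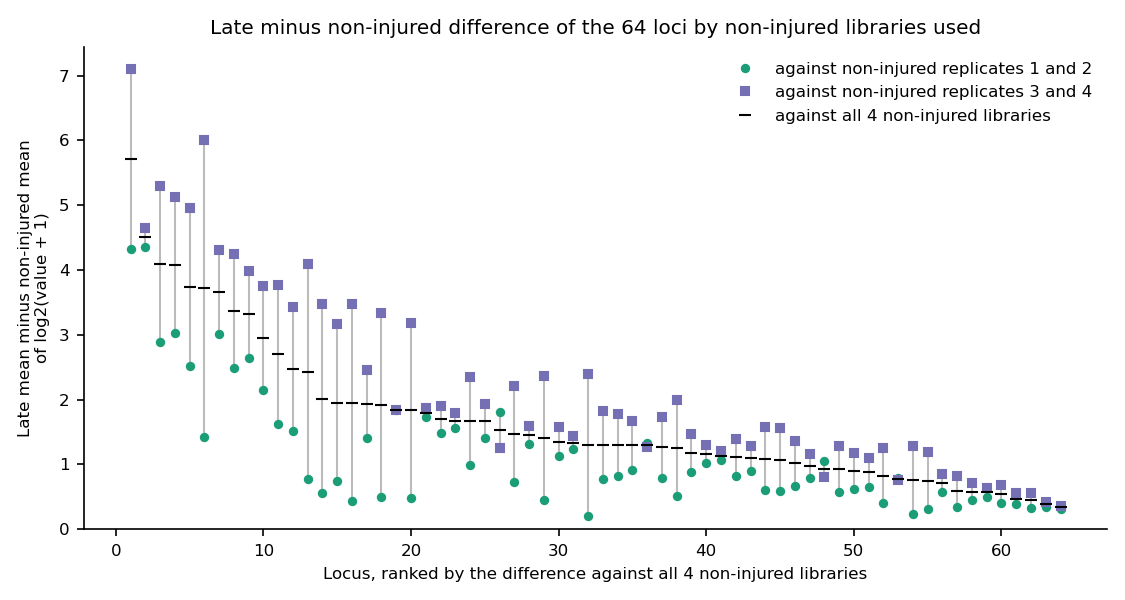
Late mean minus non-injured mean of log2(value + 1) for the 64 loci, ranked by the difference against all 4 non-injured libraries (black marks), with the same difference against non-injured replicates 1 and 2 (green circles) and against replicates 3 and 4 (violet squares). Squares lie above circles in nearly all loci, with medians of 1.70 and 0.80. The first square on the left stands on 2 non-injured values of 0, and its height depends on the 1 added before the logarithm.

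XLOC_047649 gave an extreme case, with a difference of 0.21 against non-injured replicates 1 and 2 and 2.39 against replicates 3 and 4. It had 95.2, 94.2, 82.2 and 90.3 at 7 dpci and 109.7, 86.1, 81.05 and 84.9 at 14 dpci, against 75.8, 79.99, 31.02 and 8.38 in the non-injured libraries. Late libraries varied little in this locus, while the non-injured libraries and those at 1.5 dpci were spread widely. At 1.5 dpci it had 0.913, 45.4, 23.2 and 36.1. XLOC_062121 had 126, 111, 107 and 77.8 at 7 dpci and 69.1, 74.97, 82.03 and 103 at 14 dpci, against 65.7, 43.5, 28.8 and 0 in the non-injured libraries. Its early libraries were uneven too, with 15.5, 0, 0.682 and 27.7 at 1.5 dpci and 40.6, 0.925, 37.1 and 46.8 at 3 dpci. Other loci were even across the 4 non-injured libraries. In XLOC_003628, for instance, these had 376, 419, 388 and 427, and its difference was 0.79 against replicates 1 and 2 and 0.76 against replicates 3 and 4.

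The mean late value ranged from 74.9 to 32134 over the 64 loci, with a median of 211. It was under 100 in 5 loci, from 100 to under 200 in 26, from 200 to under 1000 in 20, and at least 1000 in 13. XLOC_001234 had the highest mean, with 16076, 8819, 7203 and 13507 in the non-injured libraries, 705, 1711, 769 and 1658 at 1.5 dpci and then 3684, 6425, 5139 and 6776 at 3 dpci. At 7 dpci it had 21980.3, 25763, 21000.3 and 24829, and at 14 dpci 21740.4, 65511, 42087 and 34163. All 4 libraries at 1.5 dpci were below all 4 at 3 dpci, which were in turn below all 4 non-injured libraries, and 14 dpci replicate 1 was the lowest of its group.

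XLOC_043388 came next by mean value, with 7341, 5291, 4352 and 7396 in the non-injured libraries, 3495, 2652, 4829.8 and 2178 at 1.5 dpci and 3868, 5253, 3854 and 4618 at 3 dpci. Its late values were 15369.8, 17822, 16140.2 and 10731 (7 dpci) and 13230.0, 42168, 30716 and 41051 (14 dpci). XLOC_043389, with the next number, had 750.3, 793, 749 and 487 at 7 dpci and 635, 2372, 1397 and 1926 at 14 dpci, against 384, 401, 346 and 484 in the non-injured libraries. In both loci 7 dpci replicate 4 was the lowest of the late libraries, and 14 dpci replicate 1 was well under the other 3 libraries at 14 dpci.

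The other 3 loci named for a high mean had smaller or more even differences. XLOC_015885 averaged 4118 ± 538 (SD, n = 8) in late libraries and 1817 ± 832 (SD, n = 4) in non-injured ones. XLOC_059007 averaged 3819 ± 681 in late libraries and 1740 ± 328 in non-injured ones. XLOC_026911 averaged 3757 ± 466 in late libraries and 2701 ± 227 in non-injured ones, a ratio of 1.39. At the low end of mean late values, XLOC_061343 averaged 74.9 ± 11.7 in late libraries and 50.02 ± 10.4 in non-injured ones, and XLOC_040016 averaged 94.3 ± 15.2 and 51.01 ± 14.3.

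The smallest late differences were those of XLOC_050922, XLOC_015465 and XLOC_012309. XLOC_050922 had 3013, 3181, 3136 and 2778 at 7 dpci and 3008, 2859, 3268 and 3378 at 14 dpci, against 2479, 2419, 2059 and 2109 in the non-injured libraries. XLOC_015465 had 2534 ± 73.7 at 7 dpci and 2713 ± 551 at 14 dpci, against 2008 ± 206 in non-injured libraries (SD, n = 4 each). XLOC_012309 had 1499 ± 94.5 at 7 dpci and 1722 ± 152 at 14 dpci, against 1273 ± 54.8 in non-injured libraries. Their differences were 0.44, 0.38 and 0.33.

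Most of the 64 loci were below the non-injured level at 1.5 dpci. Since the rule caps the early means, these values too are a description. At 1.5 dpci the difference from the non-injured mean had a median of -0.94, and it was below 0 in 60 of the 64 loci and at or below -1 in 31. At 3 dpci the median was -0.35, with 45 loci below 0 and 14 at or below -1. In 43 loci the mean was below the non-injured one at both times, and in 17 it was below at 1.5 dpci and above at 3 dpci. Over all loci with a mean of at least 50 both medians were -0.03. The non-injured libraries used mattered here as well. Against replicates 1 and 2 only, the medians over the 64 loci were -1.48 at 1.5 dpci and -0.68 at 3 dpci, with 64 and 57 loci below 0. Against replicates 3 and 4 only, they were -0.42 and 0.04, with 52 and 31 loci below 0, so that at 3 dpci the median changed its sign.

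The same loci can be read by libraries that do not overlap. All libraries at 1.5 dpci were below all non-injured libraries in 22 of the 64 loci (34.4%), against 21.6% of loci with a mean of at least 50. All libraries at 3 dpci were below all non-injured libraries in 6 of the 64 (9.38%), against 20.6%. The rule leaves out loci that are more than 0.5 higher at either early time, so neither share can be set against the background as a result about these loci.

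By the mean log2 difference of the 8 early libraries from the non-injured ones, the lowest were XLOC_051450, XLOC_051444 and XLOC_053171, at -3.31, -3.23 and -2.51. XLOC_051450 had 92.2, 88.9, 35.5 and 2.39 in the non-injured libraries, 0, 1.13, 0 and 5.87 at 1.5 dpci and 8.94, 5.55, 0 and 11 at 3 dpci. It had 111, 112, 146 and 99.9 at 7 dpci and then 92.98, 134, 158 and 142 at 14 dpci. The other 2 loci had the same shape. XLOC_051444 averaged 50.6 ± 40.3 in non-injured libraries, 3.005 ± 3.71 at 1.5 dpci, 4.96 ± 4.15 at 3 dpci, 97.4 ± 7.22 at 7 dpci and 147.5 ± 33.8 at 14 dpci (SD, n = 4 each). XLOC_053171 averaged 66.2 ± 51.7, 4.92 ± 4.94, 11.6 ± 5.54, 145.9 ± 23.8 and 179.7 ± 41.8 in the same groups. In all 3 loci the non-injured libraries divided, with replicates 1 and 2 high, replicate 3 lower and replicate 4 near the early libraries.

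Between the early times, 3 dpci was compared with 1.5 dpci by limma on log2(value + 1) over 62594 loci, with Benjamini-Hochberg adjusted p-values and a threshold of 0.05. Of the 64 loci, 15 rose at 3 dpci relative to 1.5 dpci (23.4%) and 1 fell (1.56%). Of all loci tested 4.86% rose and 4.57% fell, and of the loci with a mean of at least 50 the shares were 7.17% and 4.45%. The median difference over the 64 loci was 0.49, with 50 above 0, against 0.00 over loci with a mean of at least 50. The rule caps the means at both early times, so this comparison is not wholly free of it, and the shares are given without a test of their difference.

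The largest rise between the early times was that of XLOC_005449. It had 239.7, 373, 406 and 359 at 3 dpci, against 50.2, 54.4, 23.2 and 49.5 at 1.5 dpci, a difference of 2.97 (SE 0.29, limma adjusted p = 3.4e-06). All 4 libraries at 3 dpci were above all 4 at 1.5 dpci, and around the non-injured values of 365, 279, 319 and 245. Its late values were 1025, 1237, 627 and 423 (7 dpci) and 768, 751, 682 and 804 (14 dpci).

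XLOC_063655 had 41.4, 61.1, 45.1 and 45.9 at 3 dpci, against 8.22, 3.402, 8.87 and 5.87 at 1.5 dpci, a difference of 2.75 (SE 0.28, limma adjusted p = 5.6e-06). At 3 dpci it stood about where the non-injured libraries did, which had 51.8, 44.4, 29.9 and 26.3, and its late values lay between 66.5 and 116. XLOC_008000 had a difference of 2.65 (SE 0.45, limma adjusted p = 7.2e-04). Its values at 1.5 dpci were near the limit of counting, so that this difference was 5.12 with 0.1 and 1.2 with 5 added before the logarithm, and 4.58 by edgeR, each past the threshold. XLOC_001234 rose by 2.27 (SE 0.34, limma adjusted p = 4.3e-04) and XLOC_059007 by 1.38 (SE 0.18, limma adjusted p = 4.9e-05), both from libraries that did not overlap between the times. The other 10 loci that rose had differences of 0.40 to 1.99, the largest of them in XLOC_056499.

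The only one of the 64 loci that fell at 3 dpci relative to 1.5 dpci was XLOC_021426. It had 76.4, 129.5, 41.5 and 70.6 at 3 dpci, against 175, 268, 172 and 133 at 1.5 dpci, a difference of -1.29 (SE 0.40, limma adjusted p = 0.047). Its non-injured values were 264, 239, 59.8 and 73.01, and its late values lay between 275 and 440.5. This call was lost by edgeR, with an adjusted p of 0.090, with rescaling by TMM factors (0.055), with 0.1 added before the logarithm (0.054), and when any 1 of the 8 libraries other than 3 dpci replicate 2 and 1.5 dpci replicate 4 was left out (0.077 to 0.16).

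**Figure D4:**
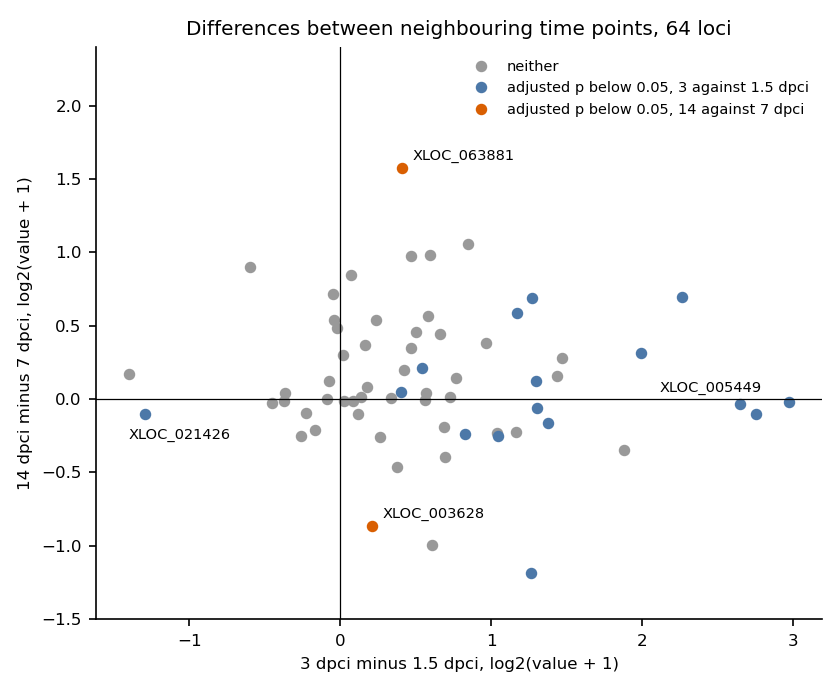
Difference of mean log2(value + 1) between 14 and 7 dpci (vertical axis) against that between 3 and 1.5 dpci (horizontal axis) for the 64 loci, with loci past an adjusted p of 0.05 in colour. The points spread to the right, with 50 of 64 above 0 between the early times, and scatter around 0 vertically, with a median of 0.04.

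Between the late times, few of the 64 loci passed the test. The difference between 14 and 7 dpci had a median of 0.04 and was above 0 in 37 loci, against a median of 0.01 over loci with a mean of at least 50. By limma 1 locus rose at 14 dpci relative to 7 dpci and 1 fell, each 1.56% of the 64. Of all loci tested 0.105% rose and 0.299% fell, and of those with a mean of at least 50 the shares were 0.195% and 0.67%. At an unadjusted p below 0.05, 6 of the 64 were higher (9.38%) and 2 lower (3.12%). At that threshold 4.78% of all loci tested were higher and 6.43% lower, and of those with a mean of at least 50, 7.53% and 8.32%. With 1 locus in each direction, these shares say nothing particular to the set.

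XLOC_063881 was the locus that rose. It had 277, 127, 140.3 and 121 at 14 dpci, against 54.1, 51.5, 52.98 and 48.99 at 7 dpci, a difference of 1.57 (SE 0.25, limma adjusted p = 0.0066). The libraries at 14 dpci were all above those at 7 dpci, which lay within 49.0 to 54.1, and replicate 1 was the highest. Non-injured, 1.5 dpci and 3 dpci libraries overlapped, at 27.9 ± 5.39, 21.1 ± 1.77 and 28.7 ± 5.95 (SD, n = 4 each). The call held by edgeR and without any single library of the 2 groups, and was lost in a model of only the 8 libraries compared (adjusted p = 0.089).

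XLOC_003628 was the locus that fell. It had 556, 555, 488 and 450.1 at 14 dpci, against 1113, 1292, 863 and 601 at 7 dpci, a difference of -0.86 (SE 0.18, limma adjusted p = 0.030). The highest library at 14 dpci was below the lowest at 7 dpci, and the lowest at 14 dpci was 1.05 times the highest non-injured value. The call was lost in a model of only the 8 libraries (adjusted p = 0.21), by edgeR on 19 libraries (0.051), and when any 1 of the 8 libraries other than 14 dpci replicate 1 and 7 dpci replicate 4 was left out (0.053 to 0.11). By edgeR another of the 64 loci, XLOC_056193, was called lower at 14 dpci, with an adjusted p of 0.034 (0.17 by limma). XLOC_056193 had 103, 123, 179.9 and 95.1 at 14 dpci, against 147, 505, 520.1 and 153 at 7 dpci, so that replicates 2 and 3 at 7 dpci stood far above the other 6 late libraries.

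XLOC_043388 and XLOC_043389 had higher means at 14 dpci without passing the test. Their differences were 0.97 (SE 0.31, limma adjusted p = 0.20) and 1.05 (SE 0.34, limma adjusted p = 0.20). Without 14 dpci replicate 1, the lowest library of that group in both loci, they were 1.35 and 1.44, with adjusted p of 0.016 and 0.030. XLOC_057175 had a difference of -0.99 (SE 0.69, limma adjusted p = 0.67), with overlapping groups. A p that misses the threshold does not show that the 2 times were alike.

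Some of the 64 loci had neighbouring numbers. In 6 runs, loci of the set stood within 10 numbers of each other, with 13 loci in all. The runs were XLOC_034313 to XLOC_034320 (3 loci), and the pairs XLOC_041598 and XLOC_041606, XLOC_041638 and XLOC_041643, XLOC_043388 and XLOC_043389, XLOC_051444 and XLOC_051450, and XLOC_060645 and XLOC_060646. Of 394 loci with a mean of at least 5 that were not among the 64 but stood within 5 numbers of one of them, 134 had a late minus non-injured difference of at least 1 (34.01%), against 13.6% of the 40660 loci with that mean. Against non-injured replicates 1 and 2 only, the shares were 17.5% and 8.59%, and against replicates 3 and 4 only, 38.3% and 18.3%. The 64 loci are therefore not 64 separate observations, and whether neighbouring numbers lie side by side on a chromosome was not tested.

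The stretches around 3 of these runs, picked after their values were seen, are given to show the values of neighbours. From XLOC_034309 to XLOC_034320, 11 loci had a mean of at least 5, of which 3 were in the set. All 11 had late differences of 2.31 to 4.09, all 11 were highest among non-injured libraries in replicate 1, and all 11 were highest among late libraries in 14 dpci replicate 2. From XLOC_060645 to XLOC_060650 all 6 loci, 2 of them in the set, had differences of 2.93 to 4.42, with non-injured replicate 1 the highest non-injured library in 6 and 14 dpci replicate 4 the highest late library in 5.

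From XLOC_051441 to XLOC_051450, 9 loci had a mean of at least 5, of which 2 were in the set. In all 9, non-injured replicates 1 and 2 were above replicates 3 and 4 and 14 dpci replicate 1 was the lowest at 14 dpci, and 8 had a late difference of at least 1. The loci of these stretches outside the 64 had a mean under 50 or a value in non-injured replicate 1 or 2 above the lowest late value. By contrast, XLOC_043390 and XLOC_043391, next to XLOC_043388 and XLOC_043389, had late differences of -0.34 and -0.39. Further stretches were also picked after their values were seen. From XLOC_041590 to XLOC_041650, 49 loci had a mean of at least 5, with late differences of 0.33 to 1.80, at least 1 in 27. These 49 included 4 loci of the set, the pairs that begin with XLOC_041598 and XLOC_041638. From XLOC_041758 to XLOC_041765, 6 loci had differences of 2.25 to 3.72, and XLOC_041761 was the only one in the set.

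**Figure D5:**
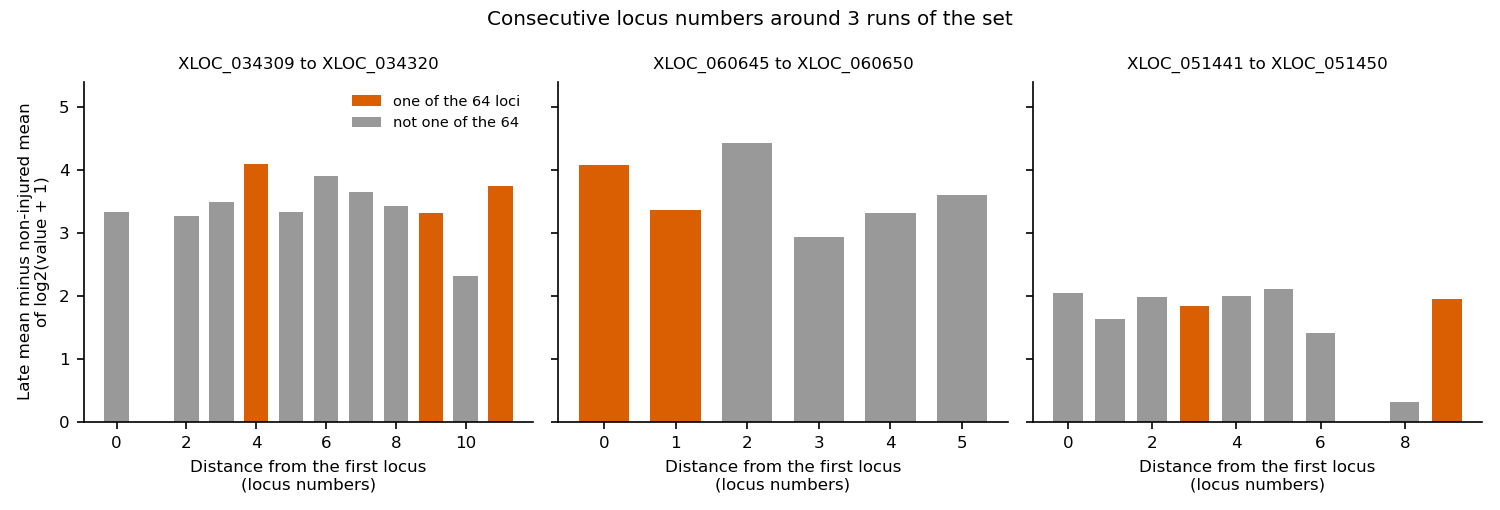
Late mean minus non-injured mean of log2(value + 1) for loci with consecutive numbers around 3 runs of the set, by distance in locus numbers from the first locus shown. Orange bars are loci of the set of 64, grey bars are other loci with a mean of at least 5, and a missing bar is a number with a lower mean. In the first 2 panels every bar is above 2, and in the third every bar but 1 is above 1.

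XLOC_045553 stood away from these runs and had one of the widest gaps. It had 199.5, 160.0, 119.7 and 148 in the non-injured libraries, 96.8, 188, 129 and 130.0 at 1.5 dpci and 164, 175, 155 and 134 at 3 dpci. Its late values were 328, 405, 506 and 446 (7 dpci) and 863, 616, 628 and 399 (14 dpci). The lowest late value was 1.64 times the highest of the other 12, and the non-injured and early libraries overlapped throughout. It and XLOC_008000 were the only 2 of the 64 loci with a gap of at least 1.5.

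For most of the set the gap was narrow. The lowest late value over the highest other value had a median of 1.098, and it was under 1.1 in 32 of the 64 loci. Just inside the rule stood XLOC_049336, XLOC_043389 and XLOC_051450, with ratios of 1.006, 1.007 and 1.009. Just outside stood XLOC_057896, XLOC_062120 and XLOC_002605, with ratios of 0.999, 0.998 and 0.997. In all, 132 loci that met every other condition of the rule had a ratio from 0.9 to under 1. The lowest late library was 14 dpci replicate 1 in 14 loci, 7 dpci replicate 4 in 12 and 7 dpci replicate 1 in 10, and each of the 8 late libraries was the lowest in at least 4.

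The other limits of the rule were as close. On the non-injured mean of at least 5, XLOC_008000 lay inside at 5.21. Without non-injured replicate 1, both XLOC_008000 and XLOC_058414 would miss that limit. On the early limit of 0.5, XLOC_021426, XLOC_041643 and XLOC_008000 lay inside, at 0.49, 0.40 and 0.39. XLOC_062917, XLOC_020332 and XLOC_028558 lay outside, at 0.55, 0.56 and 0.72, and of the 10 loci left out here XLOC_013888 was the farthest, at 1.70. On the mean of at least 50, XLOC_061343 lay inside at 50.01, while XLOC_002892 had 49.98, and 81 loci met every other condition with a lower mean.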

How the data were processed

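RNA of 20 pooled apex samples was sequenced as stranded total RNA libraries by a service provider. Per the paper's methods the alignment used GRCz10 and Ensembl release 90, and the labels name Cuffdiff. The deposited signal is the number of reads on each locus divided by 1 size factor per library, not by length. Each column was divided by the value of 1 read, taken from its lowest value and refined on further values. Values of at most 20 reads were then whole within a tolerance of 0.1 in every library, and 19 libraries were used as reads. In 7 dpci replicate 1 the value of 1 read was 1.002, close to 1, and it was left out by choice. For 7 dpci replicate 1 only the normalized values were used. The gene names and positions, which fill 42278 of 66128 rows, are not in the order of the locus numbers and were not used, so the planned marker check was not run.

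Groups came from the sample titles. Differences between 14 and 7 dpci and between 3 and 1.5 dpci were tested with limma 3.58.1 under R 4.3.3 (lmFit, then eBayes trended and robust) on log2(value + 1), in a model of 20 libraries and 5 groups over 62594 loci above 0 in at least 1 library. P-values were adjusted by Benjamini-Hochberg with a threshold of 0.05, and the test was tried on simulated data. Alternatives were TMM scaling, quantile normalization, a filter that asks 4 libraries to reach 10, adding 0.1 or 5 before the logarithm (pseudocount), only the 8 libraries compared, a replicate block, edgeR 4.0.16 (quasi-likelihood) on the reads of 19 libraries, leaving out each library, and rule means of 10 and 100. Added after seeing the data were limma on the 19 libraries and each pair of non-injured libraries.

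The set and the rule for named loci were chosen with earlier results of these data known. That rule took the 10 largest late differences, the 5 highest and 5 lowest late means, up to 5 called loci each way for 14 against 7 dpci and 3 each way for 3 against 1.5 dpci, the 3 lowest early differences, the 3 widest and 3 narrowest gaps and the 3 last ranks. XLOC_056193, XLOC_056499, XLOC_043390, XLOC_043391 and the loci at the ends of runs, stretches and rule limits were named after their values were seen.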

Additional observations from a re-analysis of the deposited data

Results flagged for a closer look

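For the 33 loci named by the rule, 165 groups of 4 libraries were looked at on the scale of log2(value + 1). The gap of the highest or lowest library to the next one, as a share of the whole range, was compared with Dixon's 95% critical value. It was above that value in 12 groups. About 8.25 would be flagged if the groups were independent draws from a normal distribution. They are not, since the loci were named by values in these data and some moved together. A group with 4 equal values could not be flagged. The values printed below are not logged, while the shares are of log2 values. In the non-injured group the flagged library was replicate 1 in XLOC_058414 (45.5 against 0 in the other 3, a share of 1), XLOC_034313 (79.6 against 3.32 to 5.93, 0.839) and XLOC_034318 (63.1 against 9.58 to 11.9, 0.892).

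At 1.5 dpci it was replicate 1 in XLOC_008000 (0.913, the value of 1 read, against 0, a share of 1) and replicate 3 in XLOC_005449 (23.2 against 49.5 to 54.4, 0.887). At 3 dpci it was replicate 4 in XLOC_058414 (1.83, where 1 read is 0.917, against 0, a share of 1), replicate 3 in XLOC_060645 (1.77 against 4.06 to 4.63, 0.851) and replicate 2 in XLOC_062121 (0.925 against 37.1 to 46.8, 0.930). At 7 dpci it was replicate 4 in XLOC_043389 (487 against 749 to 793, 0.883). At 14 dpci it was replicate 2 in XLOC_026911 (4469 against 3303 to 3446, 0.860), and replicate 1 in XLOC_021426 (280.1 against 345 to 357, 0.862) and in XLOC_053171 (118 against 192 to 209.7, 0.844).

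Of the loci that passed limma's test between neighbouring times, the rule named 6 for the size of their difference. Between 14 and 7 dpci these were XLOC_063881 with a difference of 1.57 and XLOC_003628 with -0.86, and each had no overlap between the 2 groups. Between 3 and 1.5 dpci they were XLOC_005449 with 2.97, XLOC_063655 with 2.75, XLOC_008000 with 2.65 and XLOC_021426 with -1.29, the last of which was lower in each library at 3 dpci than in every library at 1.5 dpci.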

How the results depend on the processing

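No late or tested difference of a named locus and no median late difference reversed under an alternative run, while the median 3 dpci minus non-injured difference of -0.35 became 0.04 with only non-injured replicates 3 and 4. For late differences the rule fixed the sign in advance, since it asks every late value to exceed every non-injured one. Only TMM scaling and quantile normalization could have changed it. Of the late minus non-injured differences of the named loci, 197 values under alternatives stayed within 1 SD of the non-injured libraries and 1 did not, XLOC_008000 with a pseudocount of 5 (3.74). That SD is wide in XLOC_058414, which moved farther, to 8.20 with a pseudocount of 0.1 and 3.99 with 5. With only a pair of non-injured libraries the bound could not be passed, since the mean of a pair always lies within 1 SD of the mean of all 4. Those runs therefore say nothing about stability. XLOC_047649, at 0.21 against non-injured replicates 1 and 2 and 2.39 against replicates 3 and 4, counts among the 197. Of the tested differences of named loci, 82 stayed past the threshold and 20 did not, and these were of XLOC_063881 (1), XLOC_003628 (9) and XLOC_021426 (10).

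In a model of only the 8 libraries compared, 0 of the 64 loci rose and 0 fell at 14 dpci relative to 7 dpci (3 and 20 of all loci, against 66 and 187 in the model of 20 libraries). Limma on the 19 libraries called 0 lower. Leaving out 1 library gave 1 to 3 higher and 0 to 1 lower, with 3 higher without 14 dpci replicate 1. For 3 against 1.5 dpci, 0 were lower with TMM factors, a pseudocount of 0.1, edgeR and limma on the 19 libraries, and leaving out 1 library gave 10 to 15 higher and 0 to 1 lower.

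Whether replicate numbers pair the samples is not given in the sources used here, and the main model did not pair them. Same-numbered libraries had correlations of deviations of 0.066, -0.067, -0.092 and 0.348 between 14 and 7 dpci, and 0.111, -0.096, 0.119 and -0.056 between 3 and 1.5 dpci. With a replicate block, 1 locus was higher and 1 lower at 14 dpci, and 12 were higher and 1 lower at 3 dpci.

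The median late difference was 0.80 with only non-injured replicates 1 and 2, and 1.14 to 1.49 without any 1 library. The rule found 140 loci with a minimum mean of 10 and 37 with 100. With only non-injured replicates 3 and 4 it found 287. Of the 150 of these with the largest late difference, 30 were among the 64. Others of the 64 ranked lower among the 287. Without any 1 library the rule found 64 to 150, the 150 without non-injured replicate 1 (54 of the 64 among them). With TMM factors it found 69 (63 of the 64) and with quantile normalization 57 (46 of the 64).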
